A study of Mus musculus with 6 samples.

Results

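Transcript levels of cholesterol and fatty acid synthesis genes were followed in sorted CD8+ T cells from sanroque mice and from wild-type mice. The list held 32 gene symbols, and 31 of them had a probe set that the platform annotation gives to exactly 1 gene, out of 19938 genes measured that way. The remaining one, Acat2, was not analysed here. Each gene was read from its brightest probe set, chosen by the mean over all 6 arrays.

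The samples were 3 arrays of sanroque mice, which are homozygous for the san allele of Roquin (Roquinsan/san), and 3 arrays of wild-type mice (Roquin+/+). The mice were 10 weeks old and on a C57BL/6 background. CD8+ T cells with low surface CD44, a receptor that T cells raise on activation, had been sorted from spleen and lymph node suspensions. Roquin, encoded by Rc3h1, is an RNA-binding protein that represses mRNAs such as Icos. The mutation is carried in every cell of the animal, so the sorted cells developed and lived beside other mutant immune cells. The labels call the samples biological replicates and do not say how many animals gave each one.

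Cells build cholesterol from acetyl-CoA through the mevalonate pathway, and the same starting material feeds fatty acid synthesis. Both arms are driven by SREBP transcription factors. SCAP carries these precursors out of the endoplasmic reticulum when sterols are low, and INSIG proteins hold them back when sterols are high. Resting T cells need little new lipid, while T cells that divide raise both arms to build membranes.

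Rc3h1 itself had a log2 fold of 0.14 ± 0.10 (SE), which does not check the labels, since the allele is a point mutation. The labelled cell type was read next. Cd8a, a chain of the CD8 coreceptor, stood at 13.00 ± 0.02 in sanroque and 13.02 ± 0.03 in wild type (log2 intensity, mean ± SD, n = 3 each), and the T cell receptor chain gene Cd3g at 12.92 ± 0.08 and 13.06 ± 0.04. Cd44, whose surface protein set the gate, was higher as a transcript in sanroque, at 7.34, 7.70 and 7.90, against 5.98, 6.43 and 6.34 in wild type (log2 fold 1.40 ± 0.17, limma adjusted p = 0.00669). Icos was higher too, with a log2 fold of 0.81 ± 0.12 (limma adjusted p = 0.0142). Markers of other cells were higher in sanroque on the same arrays, with 7 of 11 B cell genes and 12 of 13 myeloid genes past the threshold. Of 16 cell cycle genes 9 passed the threshold as higher and 0 as lower, where 3.26% and 2.51% of all genes did. Pcna lay lower with no overlap and did not pass (log2 fold -0.29). Wild type replicate 2 had the highest B cell and myeloid medians among the wild-type arrays. Sanroque replicate 1 was the only array with a high level of Xist, the transcript of the inactive X chromosome (11.20, against 4.02 to 4.17 in the other 5 arrays). It also had a low level of the Y-linked gene Eif2s3y (4.26, against 9.77 to 10.19), so sex differed within the sanroque group.

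Most lipid synthesis genes lay within a narrow distance of wild type, and 2 of the 31 passed the test. Scd1, which encodes a stearoyl-CoA desaturase, rose 3.79-fold in sanroque cells. Fdps, which encodes farnesyl diphosphate synthase of the mevalonate pathway, fell to 0.736 of its wild-type level. The test was limma's moderated comparison over all genes, and a gene was called when its p, adjusted by Benjamini-Hochberg over all genes, was below 0.05. The call rate among all genes was 5.77%, with 3.26% called higher and 2.51% called lower. Set against these, 1 higher and 1 lower call in 31 genes is close to the background.

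The 2 biosynthetic arms lay on opposite sides of 0. In the 17 cholesterol synthesis genes the median log2 fold, sanroque minus wild type, was -0.17, and 13 of them were below 0. In the 9 fatty acid synthesis and desaturation genes the median log2 fold was 0.28, and 7 were above 0. All genes together had a median log2 fold of -0.03, with 61.5% below 0. The 3 sanroque values lay wholly below the 3 wild-type values in 4 cholesterol genes and wholly above them in 0. They lay wholly above in 5 fatty acid genes and wholly below in 0. Over all genes, 13.2% lay wholly below and 9.46% wholly above. The difference between the arms was not tested.

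**Figure D1:**
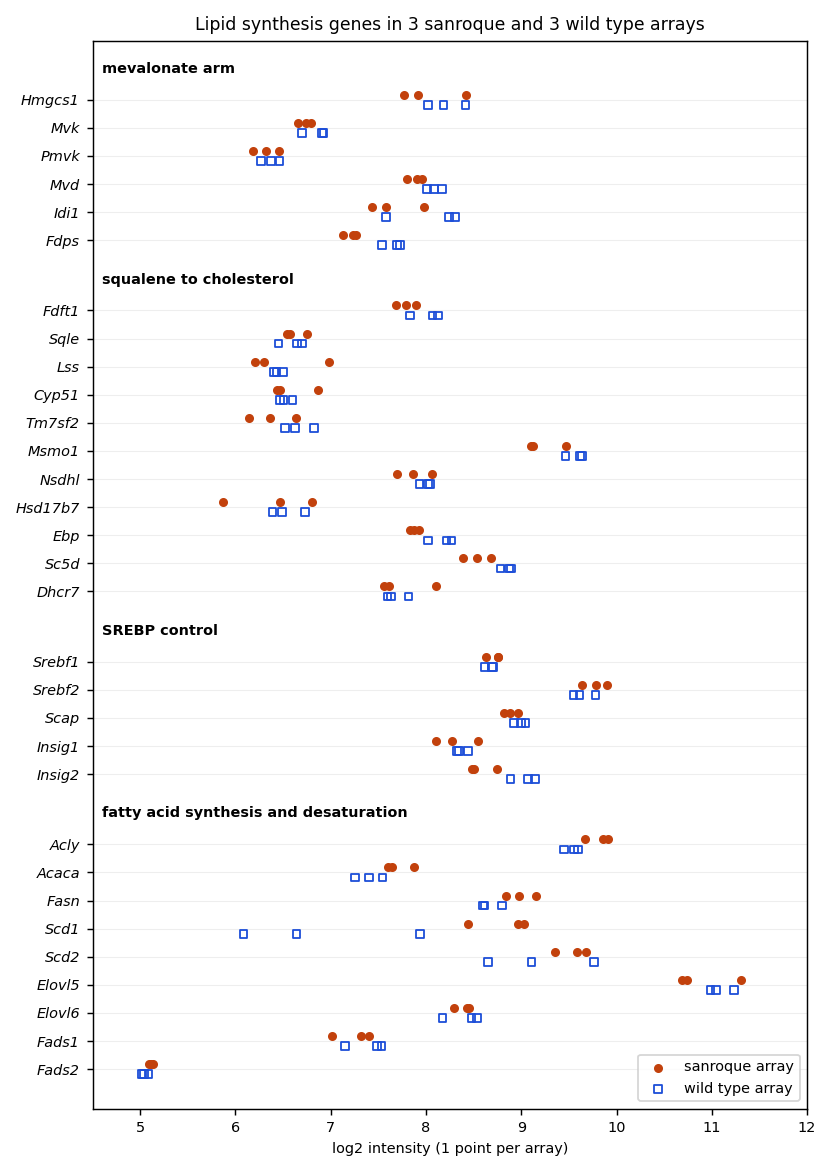
Level of each of the 31 genes in each array, as log2 intensity on the horizontal axis, grouped by role; filled circles are the 3 sanroque arrays and open squares the 3 wild-type arrays. Scd1 has the widest gap, with sanroque arrays between 8.44 and 9.02 and wild-type arrays between 6.08 and 7.94, and most other genes overlap between the groups.

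The mevalonate arm makes the isoprenoid precursors of sterols. All 6 of its measured genes had log2 folds below 0, from -0.44 to -0.04, and 1 was called. Fdps joins isoprenoid units into farnesyl diphosphate. It read 7.24, 7.13 and 7.26 in sanroque replicates 1 to 3, against 7.54, 7.69 and 7.72 in wild type replicates 1 to 3 (log2 intensity). Each sanroque array was below each wild-type array, and the sanroque arrays lay close together. The log2 fold was -0.44 ± 0.08 (SE, limma adjusted p = 0.0254). Leaving out any one array except sanroque replicate 3 ended the call, while the log2 fold stayed between -0.50 and -0.40. The T cell list was lower too on these arrays, with 1 of 6 genes called and a summed intensity of 32032 to 32824 in sanroque and 34821 to 36081 in wild type, and its part in the Fdps difference was not tested. In bulk samples, fewer cells of a type and less RNA per cell cannot be told apart.

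Mvd, the decarboxylase that makes isopentenyl diphosphate, also had groups that did not overlap. Its levels were 7.80, 7.90 and 7.96 in sanroque and 8.01, 8.17 and 8.09 in wild type, a log2 fold of -0.20 ± 0.08 that did not pass (limma adjusted p = 0.198). The groups lay close together. Idi1, the isomerase of the next step, read 7.43, 7.57 and 7.98 in sanroque and 8.24, 8.30 and 7.58 in wild type. One array of each genotype crossed into the other's range, and a further Idi1 probe set gave -0.41 against -0.38 for the one used. Hmgcs1, which encodes the HMG-CoA synthase that opens the pathway, read 7.91, 7.76 and 8.42 in sanroque and 8.18, 8.42 and 8.02 in wild type, with overlapping groups. The kinase genes Mvk and Pmvk had log2 folds of -0.11 and -0.04, each with a 95% interval that included 0.

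From squalene to cholesterol, 11 enzymes were measured and 0 were called, with 3 at an unadjusted p below 0.05 by limma, all lower, where 10.7% of all genes had such a p and were lower. These were Msmo1, Sc5d and Ebp. Msmo1, the methylsterol monooxygenase, read 9.10, 9.12 and 9.47 in sanroque, against 9.64, 9.61 and 9.46 in wild type. Sanroque replicate 3 reached the lowest wild-type array, and the other sanroque arrays lay below all of wild type. Sc5d, the sterol C5 desaturase, read 8.54, 8.39 and 8.68 in sanroque and 8.87, 8.89 and 8.78 in wild type. Ebp, the sterol isomerase, read 7.83, 7.93 and 7.87 in sanroque and 8.22, 8.27 and 8.02 in wild type. Neither gene's groups overlapped, and the log2 folds were -0.31 ± 0.09 for Sc5d and -0.29 ± 0.08 for Ebp (limma adjusted p = 0.0973 and 0.0992). Ebp and Nsdhl are on the X chromosome, and sanroque replicate 1 alone had a high Xist level. Without sanroque replicate 1 the log2 fold of Ebp was -0.27 and that of Nsdhl was -0.12, and neither was called.

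Other enzymes of the arm had log2 folds near 0. Sqle, the squalene epoxidase that limits the rate of this stretch, had a log2 fold of 0.02 with a 95% interval from -0.20 to 0.24. Cyp51 (0.07), Lss (0.05) and Dhcr7 (0.08) were slightly above 0, and each had its highest value in sanroque replicate 3. Fdft1, which makes squalene, had a log2 fold of -0.22, and a dimmer Fdft1 probe set gave -0.39. Tm7sf2, Hsd17b7 and Nsdhl, reductases and a dehydrogenase of sterol intermediates, had -0.28, -0.16 and -0.12.

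**Figure D2:**
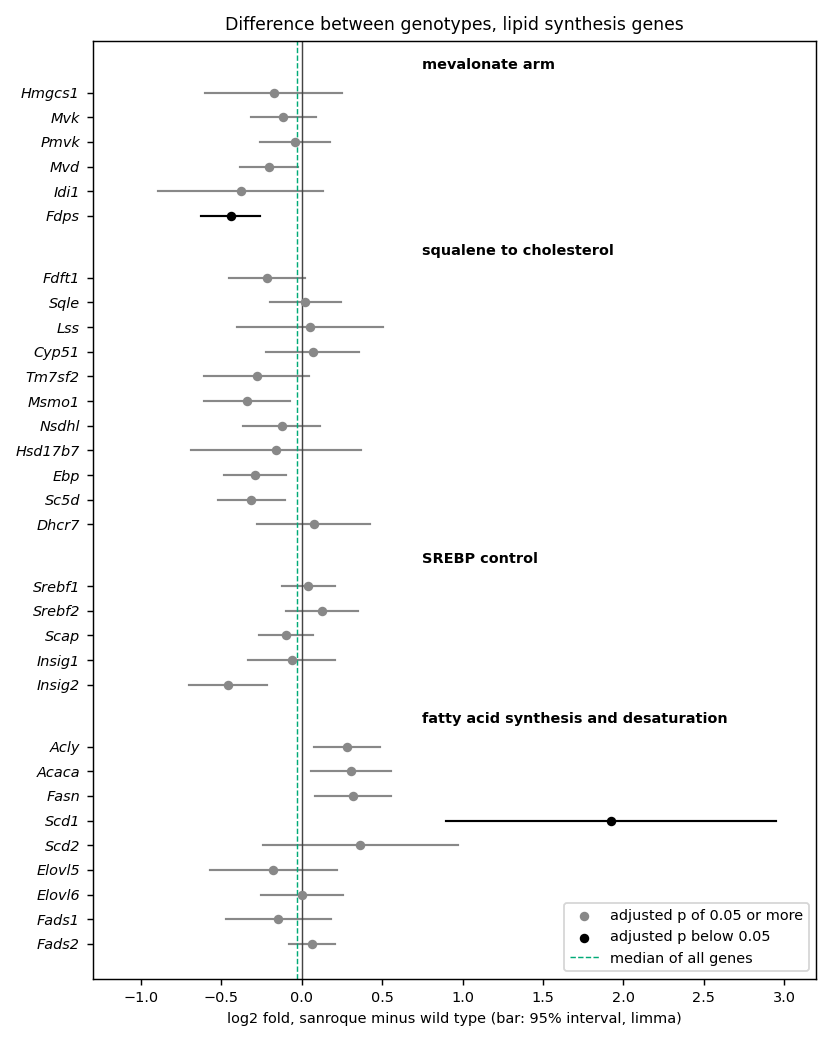
Log2 fold (sanroque minus wild type) of each gene with its 95% interval from limma on the horizontal axis, grouped by role; black marks an adjusted p below 0.05 and the dashed line is the median of all genes (-0.03). Fdps at -0.44 and Scd1 at 1.92 are the black points, and the 6 mevalonate genes all lie left of 0.

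Sanroque replicate 3 stood apart from the other sanroque arrays in the cholesterol arm. It was the highest of the 3 sanroque arrays in 14 of the 17 cholesterol genes, or 82.4%, against 33.7% of all genes. Lss, the lanosterol synthase, read 6.99 there and 6.21 and 6.30 in sanroque replicates 1 and 2. For Dhcr7, the last reductase of one branch, the same array had 8.10 and the others 7.56 and 7.61. The gap between sanroque replicate 3 and the mean of replicates 1 and 2 was 0.73 for Lss, 0.64 for Hsd17b7, 0.59 for Hmgcs1 and 0.52 for Dhcr7. The median gap over the 17 genes was 0.28, against -0.02 over all genes. Sanroque replicates 1 and 2 were both below every wild-type array in 10 of the 17, and in 4073 of all 19938 genes.

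As medians over each arm, the squalene-to-cholesterol genes of sanroque replicates 1, 2 and 3 deviated by -0.24, -0.15 and 0.07 from the wild-type mean, and wild type replicates 1, 2 and 3 by 0.02, 0.05 and -0.06. For the mevalonate genes the deviations were -0.29, -0.31 and -0.10 in sanroque and -0.09, 0.07 and 0.04 in wild type. So 2 of the 3 sanroque arrays carried most of the lower cholesterol levels. Without sanroque replicate 3, the lipid synthesis genes called lower were 4: Fdps, Insig2, Msmo1 and Sc5d, and 0 were called higher. Calls over all genes, in either direction, rose too, to 1315 from 1151 with all arrays. In each of the 4 genes the array left out was the highest sanroque array, so leaving it out lowers their sanroque means. Sanroque replicate 3 also had the highest B cell median (9.49, against 9.06 and 8.81) and the lowest myeloid median (8.82, against 10.07 and 9.62) of its group. The part of these cells in the cholesterol levels was not tested.

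**Figure D3:**
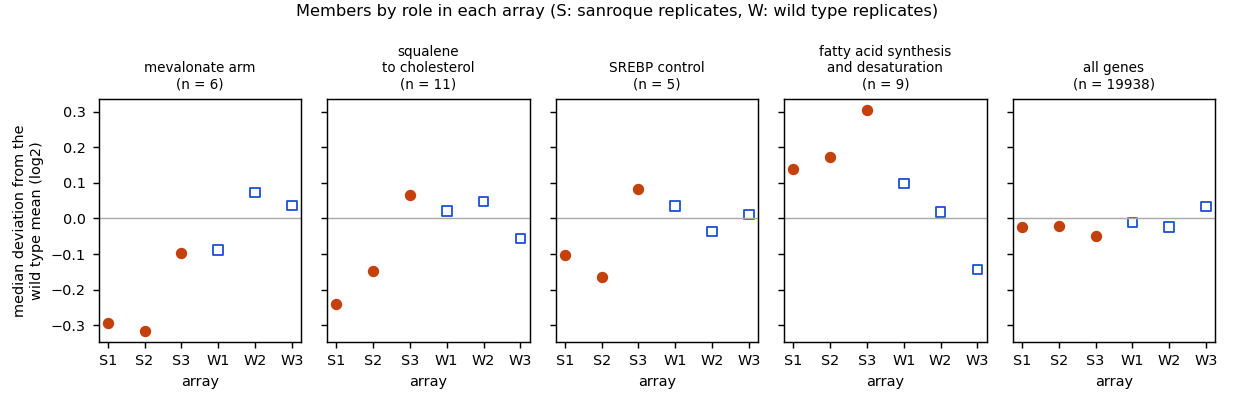
Median deviation of each role's genes from the wild-type mean, on the log2 scale, in sanroque arrays S1 to S3 (circles) and wild-type arrays W1 to W3 (squares), with all genes at the right. In the first 3 panels S1 and S2 lie below S3, while in the fatty acid panel the 3 sanroque arrays lie between 0.14 and 0.30 and the wild-type arrays between -0.14 and 0.10.

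The promoters of these genes are known for sterol response elements and for the CCAAT box bound by NF-Y, a partner of SREBP, so 4 windows are shown to set the arms beside each other. They come from RefSeq (GRCm38.p6) and run from 250 bases before to 50 bases after the annotated start. Windows were found for 25 of the 31 genes. Capitals mark CCAAT or its reverse complement ATTGG and, in Hmgcs1, the sterol element core TCACNCCAC, both searched on both strands with no overlap between the 2 motifs in these windows. Hmgcs1 stands for the start of the cholesterol arm, Mvd and Sc5d for its genes with no overlap between genotypes, and Fasn for the fatty acid arm.
Hmgcs1 (chr13:119690101-119690400, plus strand): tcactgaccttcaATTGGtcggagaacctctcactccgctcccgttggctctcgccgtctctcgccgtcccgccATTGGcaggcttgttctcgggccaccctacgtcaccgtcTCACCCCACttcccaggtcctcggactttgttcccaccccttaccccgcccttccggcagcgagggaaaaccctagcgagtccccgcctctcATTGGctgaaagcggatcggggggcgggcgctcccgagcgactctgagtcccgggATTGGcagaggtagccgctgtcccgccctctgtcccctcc
Mvd (chr8:122443373-122443672, minus strand): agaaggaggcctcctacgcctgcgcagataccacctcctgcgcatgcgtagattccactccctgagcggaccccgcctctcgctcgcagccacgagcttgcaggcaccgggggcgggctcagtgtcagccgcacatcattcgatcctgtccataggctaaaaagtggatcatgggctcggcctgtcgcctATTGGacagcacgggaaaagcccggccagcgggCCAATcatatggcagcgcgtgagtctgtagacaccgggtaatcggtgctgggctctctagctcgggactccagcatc
Sc5d (chr9:42264251-42264550, minus strand): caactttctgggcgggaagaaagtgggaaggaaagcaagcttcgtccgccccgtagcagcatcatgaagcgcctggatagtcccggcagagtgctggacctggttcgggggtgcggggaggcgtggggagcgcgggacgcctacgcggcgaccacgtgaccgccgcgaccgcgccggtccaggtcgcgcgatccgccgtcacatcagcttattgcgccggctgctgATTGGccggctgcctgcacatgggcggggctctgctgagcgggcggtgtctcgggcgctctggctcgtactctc
Fasn (chr11:120824498-120824797, minus strand): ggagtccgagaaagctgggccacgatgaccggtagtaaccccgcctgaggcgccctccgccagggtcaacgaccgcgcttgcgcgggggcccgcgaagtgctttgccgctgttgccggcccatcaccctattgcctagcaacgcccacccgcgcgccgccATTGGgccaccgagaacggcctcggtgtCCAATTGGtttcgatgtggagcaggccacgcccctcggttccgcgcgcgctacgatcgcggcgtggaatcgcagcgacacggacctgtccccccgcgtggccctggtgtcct
The sterol core matched in 1 of the 25 genes, Hmgcs1, where it begins 137 bases before the start, and in 1.44% of the 27025 genes with a window. CCAAT was found in 21 of the 25 genes and in 41.1% of all genes with a window. Both the lower-lying Mvd and Sc5d and the higher-lying Fasn hold it, with 2, 1 and 3 matches, and Hmgcs1 holds 4. A match describes letters in the window, not a bound site.

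Of 5 genes that control SREBP, 0 were called, with 1 at an unadjusted p below 0.05 by limma. That gene was Insig2, one of the endoplasmic reticulum proteins that retain SCAP. It read 8.48, 8.50 and 8.75 in sanroque, against 9.15, 9.07 and 8.89 in wild type. The groups did not overlap, and the log2 fold of -0.46 ± 0.10 lay just outside the threshold (limma adjusted p = 0.0505). Insig2 passed in 6 of 15 alternative settings, where its adjusted p ranged from 0.00125 to 0.898. Its paralog Insig1, itself a well-known SREBP target, read 8.27, 8.11 and 8.55 in sanroque and 8.35, 8.44 and 8.32 in wild type. The sanroque arrays spanned both sides of the wild-type range, and the log2 fold was -0.06 with a 95% interval from -0.33 to 0.21.

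The transcription factor genes were close to wild type. Srebf2, whose product chiefly drives cholesterol synthesis, read 9.79, 9.64 and 9.90 in sanroque and 9.55, 9.61 and 9.78 in wild type. Its log2 fold was 0.13 ± 0.10 (limma adjusted p = 0.602). Srebf1, whose product chiefly drives fatty acid synthesis, had a log2 fold of 0.04 with a 95% interval from -0.12 to 0.20. Scap had a log2 fold of -0.10 with a 95% interval from -0.26 to 0.07. SREBP is controlled by cleavage of the protein, which these arrays do not measure.

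Fatty acid synthesis begins when Acly makes cytosolic acetyl-CoA from citrate. It read 9.67, 9.86 and 9.91 in sanroque, against 9.60, 9.55 and 9.45 in wild type. Acaca, the acetyl-CoA carboxylase that commits the carbon to fatty acids, read 7.64, 7.60 and 7.88 in sanroque and 7.40, 7.54 and 7.26 in wild type. Fasn, the synthase that builds palmitate, read 9.15, 8.84 and 8.97 in sanroque and 8.79, 8.61 and 8.60 in wild type. In all 3 genes every sanroque array was above every wild-type array. The log2 folds were 0.28 ± 0.09 for Acly, 0.31 ± 0.11 for Acaca and 0.32 ± 0.10 for Fasn, and none of the 3 passed (limma adjusted p = 0.119, 0.163 and 0.127). A dimmer Acaca probe set gave a log2 fold of 0.20.

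Scd1 adds the first double bond to saturated fatty acids. It read 9.02, 8.44 and 8.96 in sanroque, against 6.64, 7.94 and 6.08 in wild type. The groups did not overlap, and wild type replicate 2 lay 1.57 above the mean of the other wild-type arrays. The log2 fold was 1.92 ± 0.44 (SE, limma adjusted p = 0.0497), with a 95% interval from 0.90 to 2.95, and by absolute size it ranked 79 among all 19938 genes. Leaving out any one array except wild type replicate 2 ended the call, at log2 folds from 1.52 to 2.11. Without wild type replicate 2 the log2 fold was 2.45 (limma adjusted p = 0.00680), and over 15 alternatives the adjusted p ranged from 0.00227 to 0.852.

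Several lists of markers of other cells lay higher in sanroque, as did Scd1. The B cell list had median levels of 9.06, 8.81 and 9.49 in sanroque and 7.41, 8.03 and 6.95 in wild type, the same order of arrays as Scd1 within wild type. Within sanroque the orders differed. From highest to lowest, Scd1 ran through replicates 1, 3 and 2, the B cell median 3, 1 and 2, and the myeloid median 1, 2 and 3. The CD4 T cell, NK cell, erythroid and cell cycle medians were also highest among wild type in replicate 2. The plasma cell median was highest in wild type replicate 3 (5.71, against 5.44 and 5.66). The summed intensity of the 11 B cell genes ranged from 8351 to 10216 in sanroque and from 2192 to 5511 in wild type. The 13 myeloid genes summed to 8960 to 13537 in sanroque and 871 to 1756 in wild type, and the 6 plasma cell genes, of which 4 were called higher, to 1642 to 2223 in sanroque and 526 to 830 in wild type. In wild type replicate 2, H2-Ab1, an MHC class II gene of B and myeloid cells, and the myeloid gene Lyz2 lay 1.38 and 1.42 above the mean of the other wild-type arrays, beside 1.57 for Scd1. Other myeloid genes stood less apart. Lcn2 lay 0.96 above that mean, and Fcer1g read 6.87 in wild type replicate 2, against 6.47 and 6.39 in replicates 1 and 3. Cd14 was lower there, at 4.40 against 4.47 and 4.53. All 11 B cell genes and all 13 myeloid genes had log2 folds above 0, as had 5 of the 6 plasma cell genes. The part of B, plasma and myeloid cells in the Scd1 level was not tested.

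Fat cells express Scd1 strongly and surround lymph nodes. Of 6 adipocyte genes 0 were called, and 0 had an unadjusted p below 0.05 by limma, where 18.9% of all genes had such a p in either direction. Adipoq read 3.88 to 4.00 in sanroque and 3.87 to 3.94 in wild type, and Fabp4 and Lep were as near to the low end of the scale. Cidec read 5.48 to 5.62 in sanroque and 5.22 to 6.01 in wild type, close to the medians of all genes on these arrays (5.87 to 5.94 in sanroque and 5.79 to 5.97 in wild type), and Plin1 and Retn lay slightly below those medians. The median level of the 6 genes was 4.70, 4.68 and 4.49 in sanroque and 4.57, 4.43 and 4.65 in wild type, with overlapping groups. The part of fat cells in the Scd1 level was not tested.

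**Figure D4:**
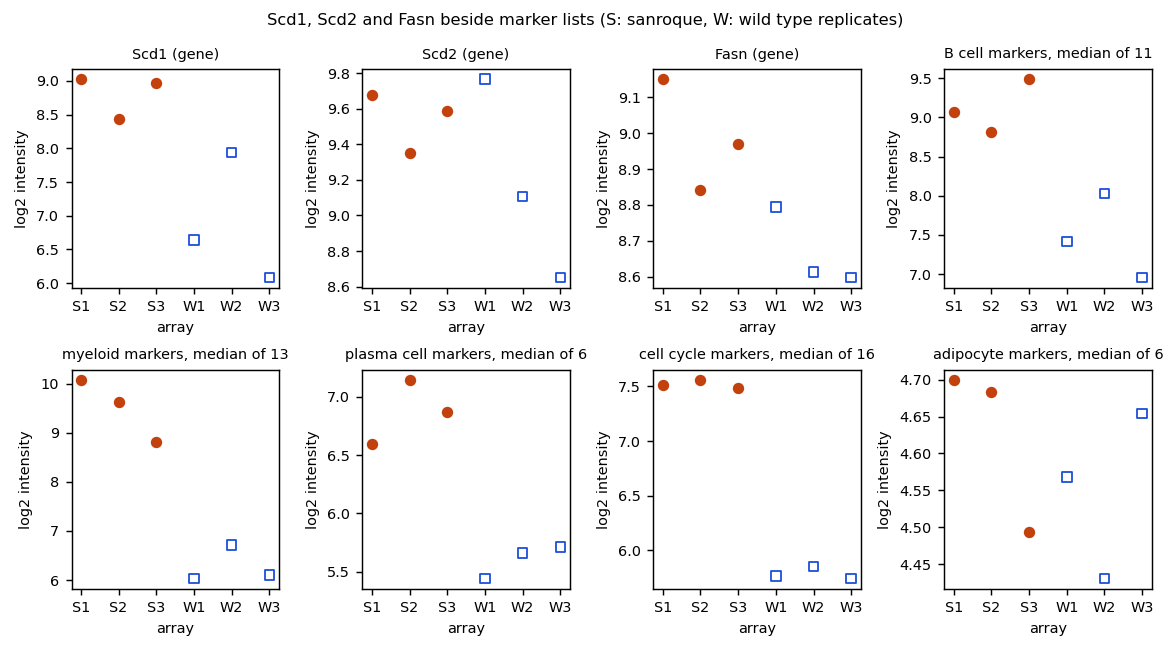
Levels of Scd1, Scd2 and Fasn and median levels of 5 marker lists (log2 intensity, each panel with its own vertical scale) in sanroque arrays S1 to S3 (circles) and wild-type arrays W1 to W3 (squares). Scd1 and the B cell, myeloid and cell cycle lists are all highest among wild type in W2, and the plasma cell list in W3. The adipocyte medians stay between 4.43 and 4.70 in all 6 arrays.

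Scd2, the related desaturase, did not share the Scd1 pattern. It read 9.68, 9.35 and 9.59 in sanroque and 9.77, 9.11 and 8.65 in wild type, where the highest of all 6 values was wild type replicate 1. The log2 fold was 0.37 ± 0.26 with overlapping groups (limma adjusted p = 0.575). Scd1 and Scd2 are close paralogs, and how far their probes share signal was not tested. Elongation and further desaturation showed no call. Elovl5, an elongase of polyunsaturated fatty acids, read 10.68, 10.74 and 11.31 in sanroque and 11.23, 10.99 and 11.04 in wild type. As in the cholesterol arm, sanroque replicate 3 was above the other sanroque arrays. Elovl6, which extends palmitate, read 8.43, 8.45 and 8.30 in sanroque and 8.53, 8.48 and 8.17 in wild type, with a 95% interval from -0.26 to 0.26 around its log2 fold. Fads1, a desaturase, had a log2 fold of -0.15. Fads2 lay near the low end of the scale, at 5.09 to 5.13 in sanroque and 5.02 to 5.09 in wild type, and its small gap did not pass.

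Around these pathways 44 further lipid genes were measured, and 3 were called, all lower in sanroque. Of all genes 5.77% were called in either direction and 2.51% were called lower. So 3 in 44 is close to the share called in either direction and above the share called lower. That difference was not tested. The 3 were genes of elongation and mitochondrial oxidation. Hsd17b12, the ketoacyl reductase of the elongation cycle, read 9.14, 9.21 and 9.13 in sanroque, against 9.77, 9.78 and 9.60 in wild type (log2 fold -0.56 ± 0.08, limma adjusted p = 0.0113). Elovl7, a long-chain elongase, read 7.15, 6.99 and 7.31 in sanroque and 7.80, 7.86 and 7.66 in wild type (log2 fold -0.62 ± 0.10, limma adjusted p = 0.0192). Acadm, the medium-chain acyl-CoA dehydrogenase of fatty acid oxidation, read 8.89, 8.94 and 9.22 in sanroque and 9.76, 9.77 and 9.85 in wild type (log2 fold -0.78 ± 0.10, limma adjusted p = 0.00847). In each of the 3 genes the groups were separated by more than either group's SD. Without wild type replicate 1 none of the 3 passed, at log2 folds of -0.53, -0.61 and -0.79. Elovl7 also missed the threshold without sanroque replicate 1 or 2 or wild type replicate 2.

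Tecr and Elovl1, also of the elongation cycle, lay lower with no overlap and did not pass. The enoyl reductase gene Tecr and the very-long-chain elongase gene Elovl1 each had a log2 fold of -0.29 (limma adjusted p = 0.150 and 0.174). Slc25a20, the mitochondrial carnitine carrier, had a log2 fold of -0.55 ± 0.13 and lay just outside the threshold (limma adjusted p = 0.0548). The other oxidation genes, from Cpt1a to Hadhb, had log2 folds from -0.19 to 0.19.

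None of the 44 was called higher. By limma 36.4% of the 44 had an unadjusted p below 0.05 in either direction, against 18.9% of all genes. In the higher direction there were 7 of the 44, against 8.16% of all genes. The largest was Lpin1, a phosphatidate phosphatase of glycerolipid synthesis, which read 8.46, 9.19 and 8.54 in sanroque and 7.87, 8.09 and 7.82 in wild type (log2 fold 0.80 ± 0.19, limma adjusted p = 0.0591). Sanroque replicate 2 was the highest there. Lpcat3, a lysophospholipid acyltransferase gene of the same list, lay lower with no overlap (log2 fold -0.34 ± 0.11, limma adjusted p = 0.142).

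Sterol uptake, transport, efflux and storage were read from 11 of the 44 genes, and 0 were called in either direction. In 4 of them every sanroque array was above every wild-type array, and in 1 every sanroque array was below. Over all genes, 9.46% lay wholly above and 13.2% wholly below. The gene nearest to the threshold was the one below, Npc2, whose product moves cholesterol out of lysosomes. It read 9.98, 10.09 and 10.15 in sanroque and 10.44, 10.37 and 10.36 in wild type (log2 fold -0.32 ± 0.07, limma adjusted p = 0.0516). Its partner gene Npc1 had a log2 fold of 0.04 with overlapping groups. Of the genes above, the sterol exporter gene Abcg1 read 9.82, 9.72 and 9.77 in sanroque and 9.55, 9.38 and 9.21 in wild type (log2 fold 0.39 ± 0.10, limma adjusted p = 0.0677). Mylip, a ubiquitin ligase gene, had a log2 fold of 0.31 ± 0.09 (limma adjusted p = 0.0970). The others above were Abca1, a further sterol exporter gene, at 0.15, and the lipoprotein receptor gene Lrp8 at 0.11. Macrophages also express Abca1 and Abcg1, and the myeloid list was higher by a median of 3.12 on the log2 scale; its part was not tested.

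**Figure D5:**
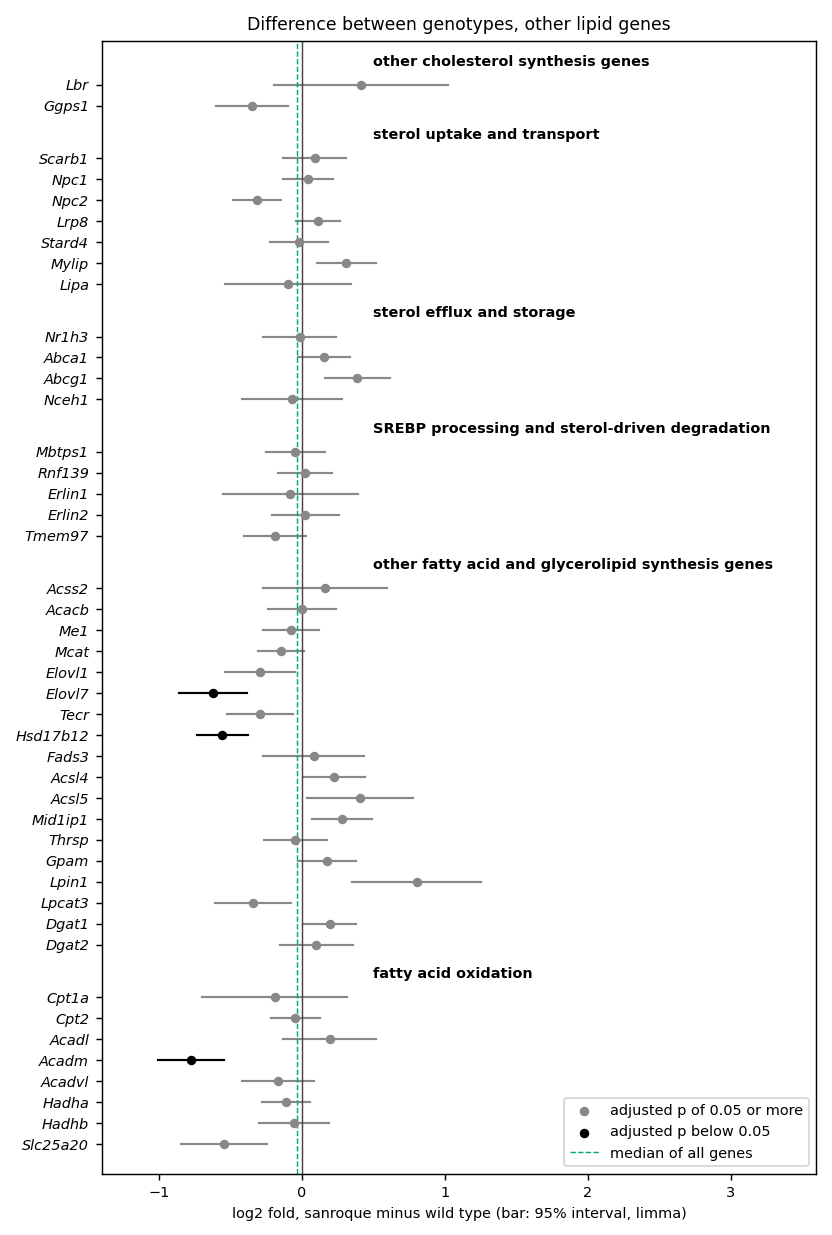
Log2 fold (sanroque minus wild type) with its 95% interval from limma for 44 further lipid genes, grouped by function; black marks an adjusted p below 0.05 and the dashed line is the median of all genes. The 3 black points, Elovl7, Hsd17b12 and Acadm, all lie left of 0, between -0.78 and -0.56.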

How the data were processed

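RNA of the sorted cells was hybridised to Affymetrix gene-level mouse arrays as biotin-labelled cRNA, per the labels' protocols. The values deposited by the authors are linear intensities, 1 for each probe set on each array. The submitters' processing notes name Partek without its role, and how background, summarization and normalization were handled is not given in the sources used here. Intensities ranged from 9.56 to 31996, and the array medians from 53.6 to 56.9. They were analysed as log2 intensities without renormalizing, since array quantiles differed by at most 0.14.

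Of 35399 probe sets, 21789 had exactly 1 gene symbol, 1621 had several and 11989 had none listed; symbols were updated through the GRCm38.p6 gene table, which matched 19856 of 19938 genes. Genes were compared with limma 3.58.1 (lmFit and eBayes, two-sided, R 4.3.3), adjusted by Benjamini-Hochberg over all 19938 genes. The number of arrays limits the precision. On simulated data of this comparison and 19938 genes, limma recovered 61.6% of changes of 0.5 (log2) and 98.3% of changes of 1. The simulated noise was normal and independent between genes and arrays, few genes changed, and no shift was shared within an array. So these shares need not hold for the real arrays. P-values set the difference between genotypes against the spread between these samples, and the labels do not say how many animals gave each one.

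The genes and lists were chosen with earlier results of these data known. Described in full were called genes and the 2 with the smallest p in each of 4 roles; other genes follow by role or were picked after their values were seen. Alternatives covered probe sets, a dim-gene filter (mean log2 of at least 6), scaling, variance model, array weights, a replicate block, a 1.5-fold minimum, a covariate and left-out arrays. Figures used matplotlib 3.10.9.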

Additional observations from a re-analysis of the deposited data

How the results depend on the processing

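The 1 lipid synthesis gene called higher was 0 with probe sets averaged, with median centring, with the trended robust variance, with the replicate block and with the covariate, 2 with quantile normalization and 3 with array weights. Leaving out 1 array gave 0 to 1. The 1 called lower was 2 with the dim-gene filter, with quantile normalization and with the trended robust variance, and 9 with array weights. It was 0 with the replicate block, the covariate, the 1.5-fold minimum and without sanroque replicate 1 and wild type replicate 2 together, and 0 to 4 with 1 array left out. The median log2 fold kept its sign, from -0.16 to -0.01 against -0.10. Other lipid genes called higher, 0 in limma, were 2 with the dim-gene filter, 3 with quantile normalization, 1 with the trended robust variance and 3 with array weights. Those called lower, 3 in limma, were 5 with quantile normalization, 11 with array weights, 1 with the replicate block, 0 with the covariate or without both arrays, and 0 to 6 with 1 array left out. All calls, 1151 in limma, were 631 with median centring, 4733 with array weights, 301 with the replicate block, 0 with the covariate, 353 without both arrays, 591 with the 1.5-fold minimum, and 218 to 1315 with 1 array left out. The covariate was a score of other cell types, the centred mean of the B cell and myeloid list medians. It lay between 1.06 and 1.48 in sanroque and between -1.57 and -0.72 in wild type, so it nearly repeats genotype. Under it the log2 fold of Scd1 changed sign, to -2.57 (SE 0.89, against 0.44). The sign also changed for H2-Ab1 (-1.89), Cd74 (-1.86), Lyz2 (-0.50) and Jchain (-2.28). None of these was called under it, and H2-Ab1, Cd74 and Lyz2 belong to the lists that make the score. The cause was not tested. Replicate numbers do not pair the arrays: same-numbered arrays had correlations of -0.05, -0.16 and -0.36 of their deviations from the group means.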
